A study of Mus musculus with 24 samples.

Results

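The genes described here are 6 genes of neutrophil granules and cytosol: S100a8, S100a9, Camp, Ngp, Ltf and Lcn2. They were found by their names in a table of 54532 mouse genes, and all 6 were among the 27286 genes tested, those above 0 in at least 6 of 24 mice. Brain hemispheres of 24 male WT C57Bl6 mice aged 8 to 12 weeks were sequenced as bulk RNA, with 6 mice in each of 4 groups. All mice carried an osmotic minipump for 2 weeks. In the vehicle group it delivered saline, and in the angiotensin II group it delivered angiotensin II, a peptide hormone that raises blood pressure, at 0.7 mg/kg/day. The vehicle + AEC and angiotensin II + AEC groups received the same infusions and an intravenous injection of human amnion epithelial cells (AEC), cells of the membrane that surrounds the fetus, after pump surgery, and the other mice were injected with saline. Only male mice were used, so the values say nothing of females.

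The 6 genes were chosen from earlier results on these same libraries. S100a8, S100a9, Ltf and Lcn2 had been named from the difference between angiotensin II and vehicle, and Camp from the difference between angiotensin II + AEC and angiotensin II. Ngp was added to them with both results known, so its values are a description throughout. The differences of those comparisons are likewise given for the 6 genes with no test. The tests are those of angiotensin II + AEC against vehicle + AEC for S100a8, S100a9, Ltf and Lcn2, and of vehicle + AEC against vehicle for Camp, which hold other mice than the comparison that named each gene.

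Neutrophils are short-lived white blood cells that develop in the bone marrow and carry ready-made antimicrobial proteins into tissue. Proteins of azurophil (primary) granules are made first in that development, those of specific granules later, and granule genes are largely switched off by the time the cell enters the blood. S100A8 and S100A9 pair to form calprotectin, the most abundant cytosolic protein of neutrophils, which binds calcium, zinc and manganese and signals through TLR4 and the receptor encoded by Ager. Camp encodes cathelicidin, an antimicrobial peptide of specific granules, and Ngp encodes neutrophilic granule protein, a cystatin-like protein of the same granules. Ltf encodes lactoferrin, which binds iron, and Lcn2 encodes lipocalin 2, which binds the iron carriers (siderophores) of bacteria. Lcn2 is also made outside neutrophils, by reactive astrocytes and by endothelial and epithelial cells, whereas healthy brain tissue holds few neutrophils outside its vessels and meninges.

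S100a8 and S100a9 lie side by side on chromosome 3 of GRCm38. S100a8 spans 90668978 to 90670035 on the plus strand, S100a9 spans 90692632 to 90695721 on the minus strand, and 22.6 kb separate them. Camp (109847379 to 109849617, minus strand), Ngp (110419747 to 110423012, plus strand) and Ltf (111019271 to 111042767, plus strand) lie on chromosome 9, with gaps of 570 kb between Camp and Ngp and 596 kb between Ngp and Ltf. Lcn2 lies on chromosome 2 from 32384633 to 32388252 on the minus strand. No other gene of the table overlapped any of the 6.

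The windows around the transcript starts of 5 of the genes are printed, those between which Pearson r over mice, given further on, was 0.47 to 0.80: the calprotectin pair, and Camp, Ngp and Ltf. The sequences are those of RefSeq on GRCm38.p6, 250 bases before to 50 bases after the annotated start, read 5′ to 3′ on the strand of the gene. They are chr3:90668821-90669120 on the plus strand, chr3:90695672-90695971 on the minus strand, chr9:109849407-109849706 on the minus strand, chr9:110419558-110419857 on the plus strand and chr9:111019042-111019341 on the plus strand. Capitals mark the letters TTNNGNAA on either strand, a core of the site of C/EBP factors, which drive granule genes during neutrophil development, and TATAAA on the printed strand.
S100a8: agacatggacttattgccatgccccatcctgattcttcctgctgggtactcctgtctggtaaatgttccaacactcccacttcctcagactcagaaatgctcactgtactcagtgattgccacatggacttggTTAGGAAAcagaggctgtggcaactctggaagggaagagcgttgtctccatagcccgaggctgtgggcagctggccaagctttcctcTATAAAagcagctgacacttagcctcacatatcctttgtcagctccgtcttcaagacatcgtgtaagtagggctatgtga
S100a9: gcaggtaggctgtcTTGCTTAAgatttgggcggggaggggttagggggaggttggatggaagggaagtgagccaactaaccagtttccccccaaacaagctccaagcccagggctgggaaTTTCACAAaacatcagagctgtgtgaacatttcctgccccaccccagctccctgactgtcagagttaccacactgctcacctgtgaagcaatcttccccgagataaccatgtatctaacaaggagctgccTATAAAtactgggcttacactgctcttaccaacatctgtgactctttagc
Camp: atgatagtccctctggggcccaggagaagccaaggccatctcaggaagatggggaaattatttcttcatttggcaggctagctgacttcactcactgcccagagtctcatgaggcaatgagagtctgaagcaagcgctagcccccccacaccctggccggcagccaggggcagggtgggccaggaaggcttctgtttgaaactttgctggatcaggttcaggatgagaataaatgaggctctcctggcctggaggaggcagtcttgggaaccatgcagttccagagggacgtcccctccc
Ngp: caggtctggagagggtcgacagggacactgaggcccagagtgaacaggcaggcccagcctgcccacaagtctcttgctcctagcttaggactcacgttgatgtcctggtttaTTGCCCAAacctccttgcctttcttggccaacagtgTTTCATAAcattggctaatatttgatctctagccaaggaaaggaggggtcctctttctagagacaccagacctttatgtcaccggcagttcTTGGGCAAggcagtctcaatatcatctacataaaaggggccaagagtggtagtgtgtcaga
Ltf: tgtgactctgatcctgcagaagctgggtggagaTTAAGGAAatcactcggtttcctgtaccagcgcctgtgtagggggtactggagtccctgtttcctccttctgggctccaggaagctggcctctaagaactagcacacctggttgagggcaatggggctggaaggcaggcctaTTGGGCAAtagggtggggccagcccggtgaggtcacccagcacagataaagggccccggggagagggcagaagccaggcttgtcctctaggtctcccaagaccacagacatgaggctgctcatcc
The letters TTNNGNAA were found in the windows of 5 of the 6 genes, with 3 matches in Ngp, 2 each in Ltf and S100a9, and 1 each in S100a8 and Lcn2. The window of Camp held none. These letters are common, being present in 40.7% of 32851 windows of the same length. Ngp at position -11 and Ltf at position -75 held the same letters, TTGGGCAA, and Ngp held their reverse complement at position -138. TATAAA was found in S100a8 at position -30 and in S100a9 at the annotated start itself, against 8.32% of all windows. GAGGAA, a core of the PU.1 site, was found on either strand in 3 of the 6 windows (28.3% of all), and TGTGGT, a core of the RUNX site, in 2 of the 6 (16.8% of all).

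Levels are given as FPKM, the fragments on a gene divided by its length and by the size of the library, so genes can be compared with each other. S100a9 and S100a8 were the highest of the 6 genes in every mouse, and Ltf was the lowest or next to the lowest. The values rest on few fragments. Over 24 mice the recovered read numbers were 24 to 199 for S100a8, 21 to 237 for S100a9, 1 to 46 for Camp, 4 to 144 for Ngp, 2 to 116 for Ltf and 19 to 193 for Lcn2, out of 16536449 to 25308700 reads per library. In whole brain tissue, fewer cells of a type and less RNA per cell cannot be told apart.

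Of the 24 libraries, 6 stood apart, with total FPKM of 338334 to 348597 against 277116 to 298301 in the other 18 and with 6.17 to 6.85% mitochondrial reads against 4.79 to 5.75%. These were replicates 5 and 6 of vehicle and of angiotensin II + AEC, replicate 5 of angiotensin II and replicate 6 of vehicle + AEC. Median levels in these 6 and in the other 18 libraries were 3.62 and 3.89 FPKM for S100a8, 7.07 and 6.02 FPKM for S100a9, 0.851 and 0.461 FPKM for Camp, 1.53 and 0.921 FPKM for Ngp, 0.206 and 0.213 FPKM for Ltf, and 0.512 and 0.771 FPKM for Lcn2. The differences tested for the 6 genes are given in all libraries and in the 18.

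The mean level of S100a9 with angiotensin II was 1.95 times that with vehicle, and its mean was highest in the mice given both angiotensin II and amnion cells. Its level was 2.18 to 7.02 FPKM with vehicle (median 3.65), 3.47 to 10.9 with angiotensin II (median 8.83), 2.10 to 7.47 with vehicle + AEC (median 5.04) and 3.41 to 22.2 with angiotensin II + AEC (median 9.73). The group means were 4.26 ± 1.99, 8.31 ± 2.84, 5.06 ± 1.77 and 11.4 ± 7.21 FPKM (SD, n = 6 each), in that order. With angiotensin II, 5 of 6 mice lay above every vehicle mouse, and replicate 2, at 3.47 FPKM, lay below the vehicle median. With angiotensin II + AEC the group was split: replicates 1, 4 and 6 had 11.7, 22.2 and 17.5 FPKM, above every mouse of the other groups, whereas replicates 2, 3 and 5 had 3.41, 6.00 and 7.78 FPKM.

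S100a8, the partner of S100a9 in calprotectin, had the same order of groups. It ranged from 1.75 to 3.69 FPKM with vehicle (median 2.40), from 1.84 to 7.70 with angiotensin II (median 4.44), from 2.01 to 5.54 with vehicle + AEC (median 3.32) and from 3.54 to 14 with angiotensin II + AEC (median 5.44). Mean levels were 2.57 ± 0.690, 4.78 ± 2.09, 3.58 ± 1.38 and 7.20 ± 4.33 FPKM (SD, n = 6 each). The vehicle mice were the tightest group, with a highest level 2.11 times the lowest, against 4.18 times with angiotensin II. Of the angiotensin II mice, 5 of 6 lay above every vehicle mouse.

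**Figure D1:**
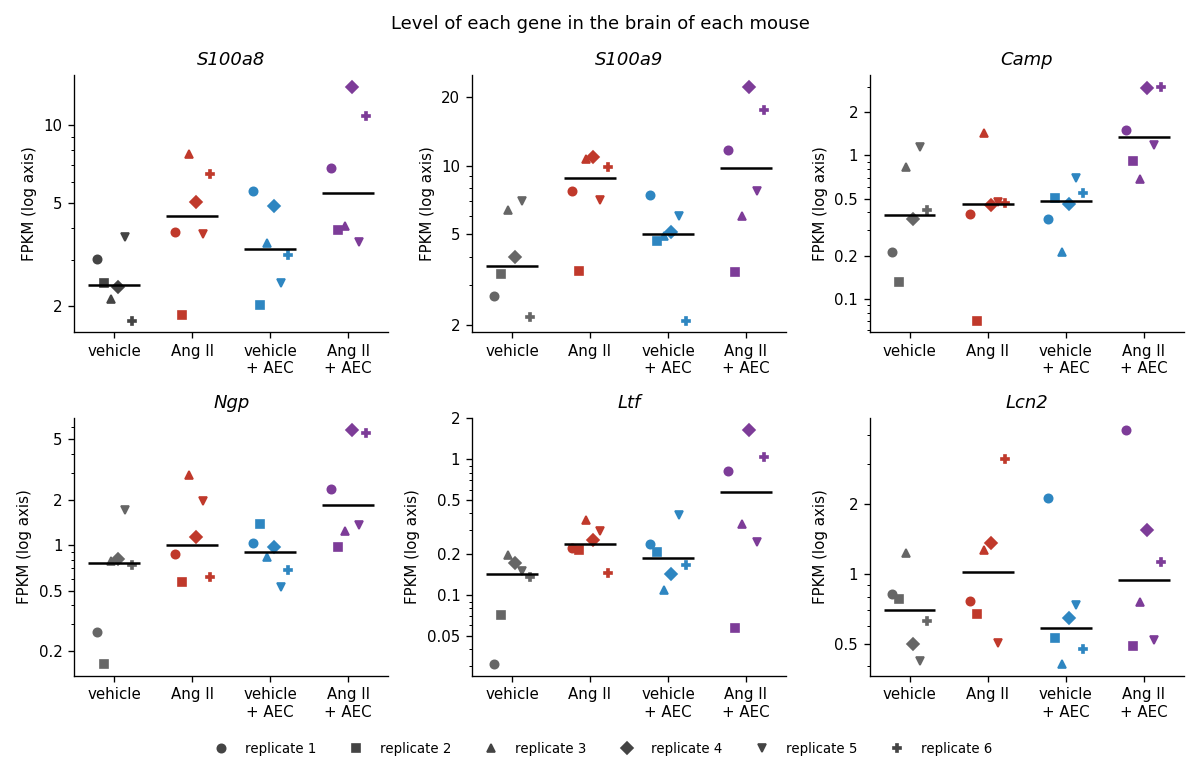
Level of each of the 6 genes in FPKM (log axis) in each of 24 mice. Each point is 1 mouse, its shape gives the replicate number, which names a mouse within its group and links no mice across groups, and the black line is the group median. In every panel but that of Lcn2, replicates 4 and 6 of angiotensin II + AEC are the highest 2 points, as for S100a9 at 22.2 and 17.5 FPKM.

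Camp, the cathelicidin gene, differed from the calprotectin pair in that its level was much alike in 3 of the 4 groups. It was 0.131 to 1.15 FPKM with vehicle (median 0.387), 0.0702 to 1.42 with angiotensin II (median 0.458), 0.212 to 0.694 with vehicle + AEC (median 0.483) and 0.688 to 3.03 with angiotensin II + AEC (median 1.34). The means were 0.518 ± 0.395, 0.546 ± 0.456, 0.464 ± 0.165 and 1.71 ± 1.03 FPKM (SD, n = 6 each). All 6 angiotensin II + AEC mice were above the mean of every other group, but 2 of them were below the highest vehicle mouse. Angiotensin II replicate 2 held the lowest level of all 24 mice, resting on 1 read. Camp was named from angiotensin II + AEC against angiotensin II, and the calprotectin pair from angiotensin II against vehicle. That choice favours such a contrast between them, so it is a description.

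Ngp was higher than Camp in most mice, and the same mice were the highest. It ranged from 0.163 to 1.71 FPKM with vehicle (median 0.758), from 0.566 to 2.91 with angiotensin II (median 0.997), from 0.526 to 1.38 with vehicle + AEC (median 0.905) and from 0.971 to 5.77 with angiotensin II + AEC (median 1.84). Means were 0.744 ± 0.550, 1.34 ± 0.922, 0.905 ± 0.298 and 2.86 ± 2.20 FPKM (SD, n = 6 each). Vehicle replicates 1 and 2 were the lowest of all mice, and angiotensin II + AEC replicates 4 and 6, at 5.77 and 5.49 FPKM, were far above the rest.

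Ltf, the lactoferrin gene, was low throughout. It ranged from 0.0312 to 0.199 FPKM with vehicle (median 0.144), from 0.146 to 0.360 with angiotensin II (median 0.239), from 0.109 to 0.389 with vehicle + AEC (median 0.188) and from 0.0573 to 1.65 with angiotensin II + AEC (median 0.579). The means were 0.127 ± 0.0637, 0.249 ± 0.0734, 0.209 ± 0.0996 and 0.691 ± 0.596 FPKM (SD, n = 6 each). With angiotensin II, 5 of 6 mice were above every vehicle mouse. The angiotensin II + AEC group held both the highest mouse of all, replicate 4, and the next to lowest, replicate 2, a 28.7-fold range within 1 group.

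Lcn2, the lipocalin 2 gene, shared only some of its high mice with the rest. It ranged from 0.422 to 1.23 FPKM with vehicle (median 0.703), from 0.502 to 3.14 with angiotensin II (median 1.02), from 0.409 to 2.14 with vehicle + AEC (median 0.588) and from 0.490 to 4.19 with angiotensin II + AEC (median 0.943). Mean levels were 0.729 ± 0.289, 1.29 ± 0.971, 0.822 ± 0.654 and 1.44 ± 1.41 FPKM (SD, n = 6 each). In each group but vehicle, 1 mouse stood well above the others: angiotensin II replicate 6 at 3.14 FPKM, vehicle + AEC replicate 1 at 2.14 FPKM and angiotensin II + AEC replicate 1 at 4.19 FPKM.

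The order of the group means was vehicle, vehicle + AEC, angiotensin II and angiotensin II + AEC, from lowest to highest, in 5 of the 6 genes. In Camp the first 2 were exchanged. S100a8, S100a9, Ltf and Lcn2 were named from angiotensin II against vehicle, and Camp from angiotensin II + AEC against angiotensin II. Ngp was added with both results known. That choice favours means that rise from vehicle to angiotensin II or from there to angiotensin II + AEC, so the order is a description. How many of all genes tested share the order was not counted. For every gene and every pair of groups compared, the levels of the mice overlapped, so no step in that order was free of the spread between mice.

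Differences between groups were taken from 1 limma fit on log2(FPKM + 0.1), a scale that understates the change of genes as low as Ltf. With angiotensin II against vehicle, the difference was 0.98 ± 0.401 (SE) on the log2 scale for S100a9, 0.78 ± 0.346 for S100a8, 0.82 ± 0.482 for Ngp, 0.65 ± 0.406 for Ltf, 0.57 ± 0.455 for Lcn2 and 0.03 ± 0.458 for Camp. The median of the 6 was 0.71, beside 0.02 over all genes tested. In this comparison 2.21% of all genes tested had an unadjusted p under 0.05 and 0% (0 genes) an adjusted p under 0.05. Since it served to choose 4 of the 6 genes, nothing is read from these values.

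With angiotensin II + AEC against angiotensin II, the difference was 1.57 ± 0.458 (SE, log2) for Camp, 0.93 ± 0.482 for Ngp, 0.79 ± 0.406 for Ltf, 0.51 ± 0.346 for S100a8, 0.28 ± 0.401 for S100a9 and 0.01 ± 0.455 for Lcn2. The median of the 6 was 0.65, beside -0.02 over all genes, of which 2.54% had an unadjusted p under 0.05 and 0% an adjusted p under 0.05. This comparison served to choose Camp and shares the angiotensin II mice with the one above.

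In the mice given amnion cells, which did not enter the choice of S100a8, S100a9, Ltf and Lcn2 from angiotensin II against vehicle, all 4 had a higher mean with angiotensin II + AEC than with vehicle + AEC, but none passed the test. The difference was 0.99 ± 0.401 (SE, log2; unadjusted p = 0.0219, adjusted p = 1, limma) for S100a9. Its level was above every vehicle + AEC mouse in 4 of 6 angiotensin II + AEC mice. For S100a8 the difference was 0.87 ± 0.346 (unadjusted p = 0.0198, adjusted p = 1, limma), with 3 of 6 mice above every vehicle + AEC mouse. For Ltf it was 0.99 ± 0.406 (unadjusted p = 0.0224, adjusted p = 1, limma), again with 3 of 6 mice. For Lcn2 it was 0.57 ± 0.455 (unadjusted p = 0.225, adjusted p = 1, limma), with 1 of 6 mice. Of all genes tested in this comparison, 2.66% had an unadjusted p under 0.05 and 0% an adjusted p under 0.05, so 3 of these 4 genes were below an unadjusted 0.05.

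An exact permutation test (two-sided) of the 6 against the 6 mice gave p = 0.0584 for S100a8, 0.0693 for S100a9, 0.110 for Ltf and 0.331 for Lcn2. Within the 18 libraries the differences were 0.85 for S100a8 (exact permutation p = 0.143), 0.61 for S100a9 (p = 0.302), 0.92 for Ltf (p = 0.270) and 0.69 for Lcn2 (p = 0.397), with 4 against 5 mice. In the limma fit without angiotensin II + AEC replicate 4 the difference was 0.74 for S100a9, 0.64 for S100a8 and 0.68 for Ltf, and the unadjusted p of each was above 0.05, as it was without replicate 6. As a description, the differences of Camp and Ngp here were 1.55 ± 0.458 and 1.28 ± 0.482 (SE, log2), and the median of the 6 genes was 0.99 beside -0.01 over all genes.

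With vehicle + AEC against vehicle, Camp differed by 0.06 ± 0.458 (SE, log2; unadjusted p = 0.904, adjusted p = 1, limma) and did not pass the test. The exact permutation test of Camp gave p = 0.887. Within the 18 libraries its difference was 0.31 (exact permutation p = 0.492). The sign of the difference of Camp depended on the setting, as it was -0.02 with a pseudocount of 1. The other 5 genes differed by 0.42 ± 0.346 (S100a8), 0.28 ± 0.401 (S100a9), 0.47 ± 0.482 (Ngp), 0.44 ± 0.406 (Ltf) and 0.01 ± 0.455 (Lcn2), as a description, and the difference of Ngp was 0.94 within the 18 libraries. Of all genes tested, 2.41% had an unadjusted p under 0.05 and 0% an adjusted p under 0.05.

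The interaction, the difference that came with angiotensin II in mice given amnion cells less that in mice without them, was 1.52 ± 0.648 (SE, log2) for Camp, 0.45 ± 0.682 for Ngp, 0.35 ± 0.573 for Ltf, 0.09 ± 0.490 for S100a8, 0.01 ± 0.567 for S100a9 and -0.00 ± 0.644 for Lcn2. For all but Camp it was smaller than its standard error. These values hold the mice that served to choose the genes and are a description.

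**Figure D2:**
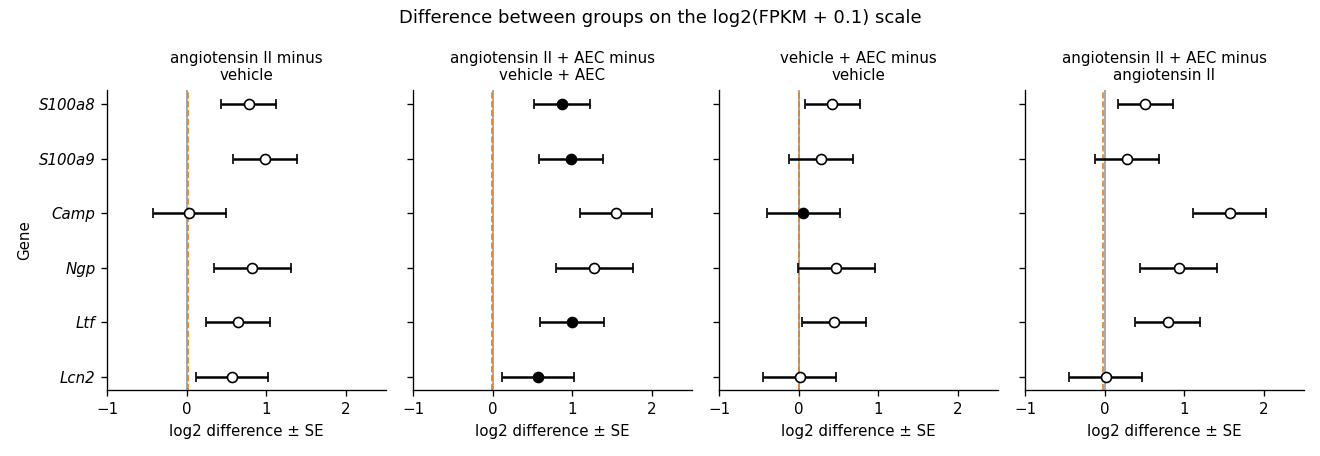
Difference between groups of each gene on the log2(FPKM + 0.1) scale (x axis) with its standard error, for 4 comparisons. Filled points were tested and open points are a description, the grey line is 0 and the dashed orange line is the median of all 27286 genes tested. The largest difference is that of Camp with angiotensin II + AEC against angiotensin II, 1.57.

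The genes varied more between mice of a group than most genes did. The within-group SD on the log2 scale was 0.635 for S100a8, 0.736 for S100a9, 0.830 for Camp, 0.880 for Ngp, 0.729 for Ltf and 0.828 for Lcn2, beside a median of 0.306 over 21169 genes with a mean of at least 0.1 FPKM. It was larger than that of 83.3% of those genes for S100a8 and of 90.5% for Ngp. The highest level over 24 mice was 8.01 times the lowest for S100a8, 10.6 times for S100a9 and 10.3 times for Lcn2. For Camp, Ngp and Ltf, whose lowest mice had 1 to 4 reads, it was 43.1, 35.4 and 52.8 times.

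A few mice held the high values. Angiotensin II + AEC replicate 4 ranked first of 24 for S100a8, S100a9, Ngp and Ltf and second for Camp, and replicate 6 of that group ranked second and, for Camp, first. For Lcn2 they ranked 4 and 8. Angiotensin II + AEC replicate 1 ranked 3 or 4 in the first 5 genes and first for Lcn2, and angiotensin II replicate 3 ranked 3 to 6 in all 6 genes. Angiotensin II replicate 6 ranked 2 for Lcn2, 5 for S100a8 and 6 for S100a9, but 20 for Ngp and 18 for Ltf. At the low end, vehicle replicates 1 and 2 were each among the lowest 3 mice in 3 genes.

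**Figure D3:**
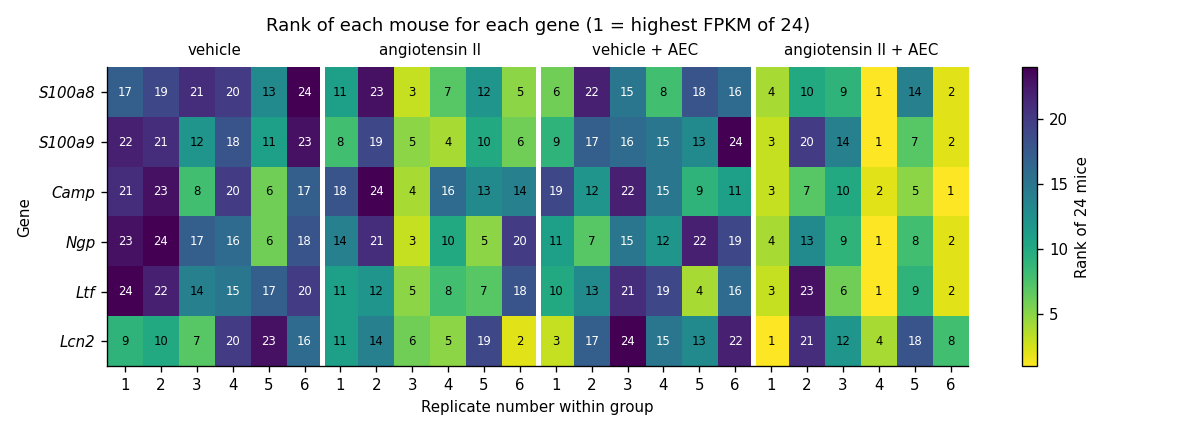
Rank of each of 24 mice (columns, by group and replicate number) for each gene (rows), where 1 is the highest FPKM. Angiotensin II + AEC replicates 4 and 6 rank 1 or 2 in every row but that of Lcn2, where they rank 4 and 8.

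To ask whether the genes rose and fell in the same mice apart from the groups, each value was taken as its deviation from its group mean, and the 15 pairs of genes were correlated over 24 mice. The strongest pair was Camp and Ngp, with Pearson r = 0.80 (permutation p = 5e-05, adjusted over the 15 pairs 0.00075) and Spearman rho = 0.76 (p = 0.00018, adjusted 0.0019). For S100a8 and S100a9 r was 0.73 (permutation p = 0.00043, adjusted 0.0021) and rho 0.73 (p = 0.00048, adjusted 0.0024). For S100a9 and Ltf r was 0.72 (permutation p = 0.0011, adjusted 0.0029) and rho 0.66 (p = 0.0041, adjusted 0.0087). For Ngp and Ltf r was 0.70 (permutation p = 0.0004, adjusted 0.0021) and rho 0.74 (p = 0.00025, adjusted 0.0019).

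Over the 10 pairs without Lcn2, r ran from 0.47 to 0.80, and rho from 0.36 to 0.76. The weakest was S100a8 with Ltf (r = 0.47, permutation p = 0.077, adjusted 0.096; rho = 0.36, p = 0.14, adjusted 0.16). Without the 2 mice farthest from the median of the first gene of each pair, r was 0.37 to 0.77. The mice left out were often low ones. Of these pairs, angiotensin II + AEC replicate 4 was left out only in those of S100a8, and replicate 6 in none. How far r rests on these 2 high mice together was therefore not tested. Within the 18 libraries r was 0.40 to 0.81, and within the 6 of high total FPKM it was 0.58 to 0.96, so that the sign was the same in each set. Pairs on different chromosomes were among them, as S100a9 on chromosome 3 had r = 0.68 with Camp (permutation p = 0.00095, adjusted 0.0028) and r = 0.66 with Ngp (p = 0.0022, adjusted 0.0047), both on chromosome 9.

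For Lcn2, whose protein is also stored in specific granules, r with the other 5 genes was 0.08 to 0.52. It was 0.08 with Ngp (permutation p = 0.75, adjusted 0.75; rho = 0.16), 0.22 with Camp (p = 0.34, adjusted 0.36; rho = 0.29) and 0.40 with Ltf (p = 0.15, adjusted 0.17; rho = 0.44). With the calprotectin pair it was 0.52 for S100a8 (permutation p = 0.032, adjusted 0.043; rho = 0.59) and 0.51 for S100a9 (p = 0.026, adjusted 0.039; rho = 0.61). Within the 6 libraries of high total FPKM its r with S100a9 was 0.14. The difference between these correlations and those of the other pairs was not tested.

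**Figure D4:**
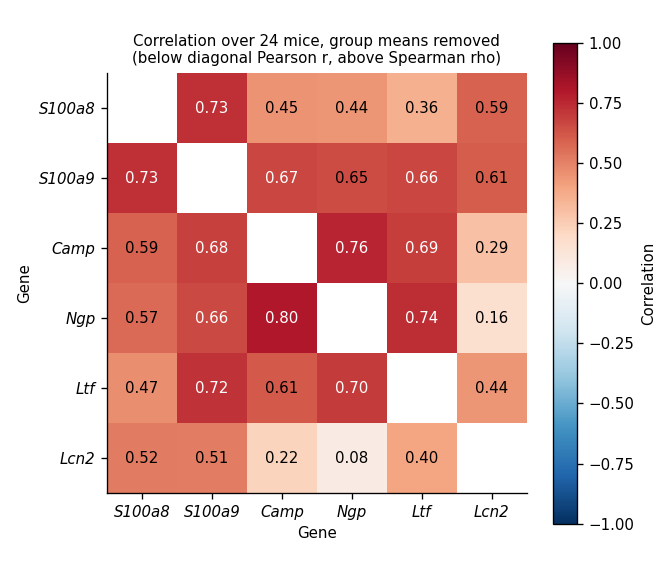
Correlation of each pair of genes over 24 mice after the group means were taken out, with Pearson r below the diagonal and Spearman rho above it, on a colour scale from -1 to 1. Camp and Ngp have the highest r, 0.80, and Lcn2 and Ngp the lowest, 0.08.

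Over all 24 mice together, the ratio of the calprotectin subunits was steadier than their levels. S100a8 was lower than S100a9 in 21 of 24 mice, with a median ratio in FPKM of 0.625 and a range of 0.334 to 1.5. By group, the median ratio was lowest, 0.532, with angiotensin II and 0.625 with angiotensin II + AEC, and it was 0.662 with vehicle and 0.723 with vehicle + AEC. Within vehicle and within vehicle + AEC the ratio was no steadier than the levels. With vehicle it ran from 0.334 to 1.13, beside 1.75 to 3.69 FPKM for S100a8 and 2.18 to 7.02 FPKM for S100a9. With vehicle + AEC it ran from 0.404 to 1.5, beside 2.01 to 5.54 and 2.10 to 7.47 FPKM. Camp was lower than Ngp in 22 of 24 mice, with a median ratio of 0.553 and a range of 0.124 to 1.32.

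Of the genes outside the 6 with a mean of at least 0.1 FPKM, those whose deviations were most like a gene's own were found by Pearson r over 24 mice, given here as a description. For Camp they were Slc4a1 (r = 0.83), which encodes the anion exchanger of red cells, Igkc (0.76), the constant region of the kappa light chain of antibodies, and Pts (0.75), an enzyme of tetrahydrobiopterin synthesis. For Ngp they were Igkc (0.83), Wfdc21 (0.80), which lies in a list of granule genes below, and 2700062C07Rik (0.74). Wfdc21 was also nearest to Ltf (0.73), followed by Myo1g (0.72), a myosin of white blood cells, and Gm49449 (0.71). Several of these genes rested on few reads. Wfdc21 was above 0 in 12 of 24 mice, with at most 10 reads, and median reads were 10 for Igkc, 12 for Slc4a1 and 8.5 for Gm49449.

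For S100a9 the nearest were Mndal (r = 0.76), Gm48605 (0.74) and Chil3 (0.73), and for S100a8 they were Gm48605 (0.76), Nrros (0.71) and Chil3 (0.70). Median reads were only 2 for Gm48605 and 9 for Chil3. Chil3 encodes a chitinase-like protein of neutrophils and macrophages, Mndal is an interferon-inducible gene, and Nrros encodes a protein of microglia and other myeloid cells. For Lcn2 they were Ch25h (0.78), the enzyme that makes 25-hydroxycholesterol, G630022F23Rik (0.74) and Sgk1 (0.73), a kinase induced by glucocorticoids. None of the 3 nearest genes of Lcn2 was among those of the other 5. Likewise, none of those of S100a8 and S100a9 was among those of Camp, Ngp and Ltf. This depends on the cut at 3, as the gene ranked 4 for Lcn2 (r = 0.72) ranked 5 for S100a9 (0.69) and 7 for S100a8 (0.67). Gm49449, ranked 3 for Ltf, likewise ranked 4 for S100a9 (0.70), and Chil3 had r = 0.64 with both Camp and Ltf.

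Other genes of neutrophils were taken from lists. Among the azurophil granule genes, all 6 tested, 3 were higher at an unadjusted p under 0.05 with angiotensin II + AEC than with vehicle + AEC, against 2.66% of all genes tested, and none had an adjusted p under 0.05. They were Elane, neutrophil elastase (1.07 ± 0.452 SE, log2), Mpo, myeloperoxidase (0.90 ± 0.337), and Ms4a3, a membrane protein of myeloid precursors (0.48 ± 0.168), each with an adjusted p of 1 by limma. With angiotensin II + AEC against angiotensin II the 3 were Elane (1.07 ± 0.452), Ctsg, cathepsin G (0.92 ± 0.420), and Ms4a3 (0.48 ± 0.168), again with an adjusted p of 1. None of the 6 passed even the unadjusted threshold with angiotensin II or with vehicle + AEC, each against vehicle. The median differences of the list were 0.31 (angiotensin II against vehicle), 0.57 (angiotensin II + AEC against angiotensin II), 0.03 (vehicle + AEC against vehicle) and 0.59 (angiotensin II + AEC against vehicle + AEC). The genes named so far from this list were near the limit of detection, with at most 4 reads for Ms4a3, 12 for Ctsg, 24 for Elane and 35 for Mpo in any mouse. The rest of the list, Prtn3 (17 to 54 reads) and Prss57 (7 to 24 reads), was above 0 in all 24 mice. Neither passed the unadjusted threshold in any comparison. With angiotensin II + AEC they differed by 0.45 ± 0.239 and 0.08 ± 0.184 (SE, log2) against vehicle + AEC. Against angiotensin II the differences were 0.24 ± 0.239 and -0.23 ± 0.184.

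Of 15 further genes of specific, gelatinase and secretory granules, 3 were higher with angiotensin II + AEC than with vehicle + AEC at an unadjusted p under 0.05. Of all genes tested, 2.66% passed that threshold in either direction. In the other 3 comparisons none of the 15 passed it in either direction. The 3 were Chil3 (0.87 ± 0.412 SE, log2), Cd177, a surface protein of neutrophils (0.84 ± 0.241), and Padi4, the enzyme that citrullinates histones (0.31 ± 0.144), each with an adjusted p of 1 by limma. They rested on few reads, at most 39 for Chil3, 19 for Cd177 and 11 for Padi4 in any mouse. The highest genes of this list were Lyz2 (mean 10.6 FPKM), Pglyrp1 (4.12 FPKM) and Adam8 (1.08 FPKM), of which Lyz2 is also a gene of microglia and macrophages, and none of them passed the unadjusted threshold. Its median difference was 0.29 in that comparison and 0.15, 0.12 and -0.03 with angiotensin II against vehicle, angiotensin II + AEC against angiotensin II and vehicle + AEC against vehicle.

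Markers of mature neutrophils differed in level. Csf3r, the receptor of the neutrophil growth factor, had a mean of 2.10 FPKM and 95 to 208 reads, and it did not pass the unadjusted threshold in any of the 4 comparisons. Ly6g was above 0 in 9 of 24 mice, with at most 4 reads, and Cxcr2, the chemokine receptor that brings neutrophils into tissue, was above 0 in 19 mice, with at most 11 reads. Of 18 genes in this list 14 were tested, and BC100530 was at 0 in all mice. Retnlg, a resistin-like gene of blood neutrophils, was higher in angiotensin II mice than in vehicle mice at an unadjusted p under 0.05 (1.14 ± 0.439 SE, log2; adjusted p = 0.994, limma). Trem3 was higher with angiotensin II + AEC than with angiotensin II (0.86 ± 0.283) and than with vehicle + AEC (0.86 ± 0.283), as was Fpr2, a formyl peptide receptor, than with vehicle + AEC (0.86 ± 0.404), all at an unadjusted p under 0.05 and an adjusted p of 1. Trem3 had at most 9 reads, Fpr2 14 and Retnlg 16 in any mouse. Of all genes tested, 2.21 to 2.66% passed the unadjusted threshold in each comparison, in either direction. The list's median difference was -0.14 with angiotensin II + AEC against angiotensin II, where 6 of the 14 genes tested were higher. It was 0.13 with angiotensin II + AEC against vehicle + AEC (11 of 14) and 0.17 with angiotensin II against vehicle (13 of 14). The summed level of the list was 2.80 to 3.95 FPKM with vehicle, 3.62 to 5.14 with angiotensin II, 2.78 to 4.01 with vehicle + AEC and 3.40 to 5.85 with angiotensin II + AEC.

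Of the regulators of granulopoiesis and attractants of neutrophils, 10 of 12 were tested, and at most 1 in each comparison had an unadjusted p under 0.05, where 2.21 to 2.66% of all genes did. None had an adjusted p under 0.05. Cebpe, the transcription factor of specific granule genes, differed by 0.63 ± 0.299 (SE, log2) with angiotensin II + AEC against vehicle + AEC (unadjusted p = 0.0461, adjusted p = 1, limma), but rested on at most 5 reads. Csf3, the growth factor of neutrophils, differed by 0.58 ± 0.239 with vehicle + AEC against vehicle (unadjusted p = 0.0236, adjusted p = 0.995), and Il6 by -0.26 ± 0.117 with angiotensin II + AEC against angiotensin II (unadjusted p = 0.0388, adjusted p = 1), with at most 4 and 3 reads. Of the receptors of the proteins that the 6 genes encode, 8 of 9 were tested, and Ager, the receptor of calprotectin, differed by 0.59 ± 0.233 with angiotensin II + AEC against vehicle + AEC (unadjusted p = 0.0181, adjusted p = 1). Slc22a17, a receptor of lipocalin 2 that is abundant in brain, had a mean of 180.8 FPKM and did not pass the unadjusted threshold in any of the 4 comparisons, nor did Lrp1, a receptor of lactoferrin (27.4 FPKM).

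None of the 11 other S100 genes tested and none of 7 other genes of iron and siderophore binding passed the unadjusted threshold in any of the 4 comparisons. The S100 genes included S100b of astrocytes (137 FPKM), S100a1 (82.9 FPKM) and S100a16 (46.3 FPKM). Their median difference was 0.13 with angiotensin II + AEC against vehicle + AEC, where that of S100a8 and S100a9 was 0.87 and 0.99.

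Genes of other blood cells differed in part beside the 6 genes. Of 9 erythroid genes, 2 were higher with angiotensin II + AEC than with vehicle + AEC and also than with angiotensin II, at an unadjusted p under 0.05 and an adjusted p of 1 by limma, among them Slc4a1 (0.91 ± 0.270 and 0.78 ± 0.270 SE, log2). Of all genes tested, 2.66% and 2.54% passed the unadjusted threshold in these comparisons, in either direction. The summed level of the 9 genes was 33.2 to 204.5 FPKM with vehicle (median 78.0), 37.1 to 189.8 with angiotensin II (median 83.0), 37.9 to 123.1 with vehicle + AEC (median 71.1) and 41.6 to 169.5 with angiotensin II + AEC (median 159.5). None of the 9 was at 0 in all mice. In the angiotensin II + AEC group, replicates 1, 4, 5 and 6 had 169.3, 169.5, 168 and 151.1 FPKM, and replicates 2 and 3 had 48.1 and 41.6 FPKM. Vehicle replicate 5 had the most of all mice, 204.5 FPKM, and ranked 13 for S100a8, 11 for S100a9, 6 for Camp and Ngp, 17 for Ltf and 23 for Lcn2. After the group means were taken out, r of Hbb-bs, a beta globin gene, with the 6 genes was 0.32 (Lcn2) to 0.55 (Camp) over 24 mice that share their libraries. Over the 9 erythroid genes, r with Camp ran from -0.14 to 0.83 and r with S100a9 from -0.08 to 0.65. Both were highest for Slc4a1. The part of blood in the tissue in the results above was not tested, and whether the brains used for RNA were perfused is not given in the sources used here.

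Among 6 monocyte genes, Ly6c2 was higher than with vehicle in the angiotensin II group (0.62 ± 0.238 SE, log2), and with angiotensin II + AEC than with vehicle + AEC (0.86 ± 0.238). F13a1 was higher in the first of these comparisons (0.42 ± 0.195) and Plac8 in the second (0.79 ± 0.257), at an unadjusted p under 0.05, with adjusted p of 0.994 or 1 by limma. Plac8 was lower with vehicle + AEC than with vehicle (-0.58 ± 0.257), and Ccr2 lower with angiotensin II + AEC than with angiotensin II (-0.29 ± 0.139), again past the unadjusted threshold only. Of all genes tested, 2.21 to 2.66% passed it in each comparison, in either direction. In any mouse there were at most 15 reads for Ly6c2, 14 for Plac8, 15 for Ccr2 and 78 for F13a1. The summed level of the 6 monocyte genes was 3.71 to 5.21 FPKM with vehicle, 4.38 to 5.54 with angiotensin II, 3.36 to 5.25 with vehicle + AEC and 4.13 to 6.19 with angiotensin II + AEC. Most of that sum was Fn1, with a mean of 4.00 FPKM, as the next highest gene, F13a1, had 0.394 FPKM. The sum therefore says little of the other genes of the list. None of 5 platelet genes and none of 8 B lineage genes passed the unadjusted threshold in any of the 4 comparisons.

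For cells of the brain, none of the 6 microglia, 10 reactive astrocyte and 6 choroid plexus genes passed the unadjusted threshold in any of the 4 comparisons. The summed level of the microglia genes was 63.9 to 74.7 FPKM with vehicle, 68.7 to 75.1 with angiotensin II, 68.2 to 75.8 with vehicle + AEC and 65.8 to 75.1 with angiotensin II + AEC. Past an unadjusted p of 0.05 were Lum, of meningeal fibroblasts, with vehicle + AEC against vehicle (-0.34 ± 0.143 SE, log2), and Col1a1 (0.60 ± 0.244) and Pecam1 of endothelium (0.18 ± 0.0795) with angiotensin II + AEC against vehicle + AEC, with adjusted p of 0.995, 1 and 1 by limma. Over all these lists together, 16 of 136 genes tested (11.8%) were past the unadjusted threshold with angiotensin II + AEC against vehicle + AEC, beside 2.66% of all genes, and 3 of 136 (2.21%) with angiotensin II against vehicle, beside 2.21% of all genes. The lists are related genes chosen with results of these data known, so the shares are a description.

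**Figure D5:**
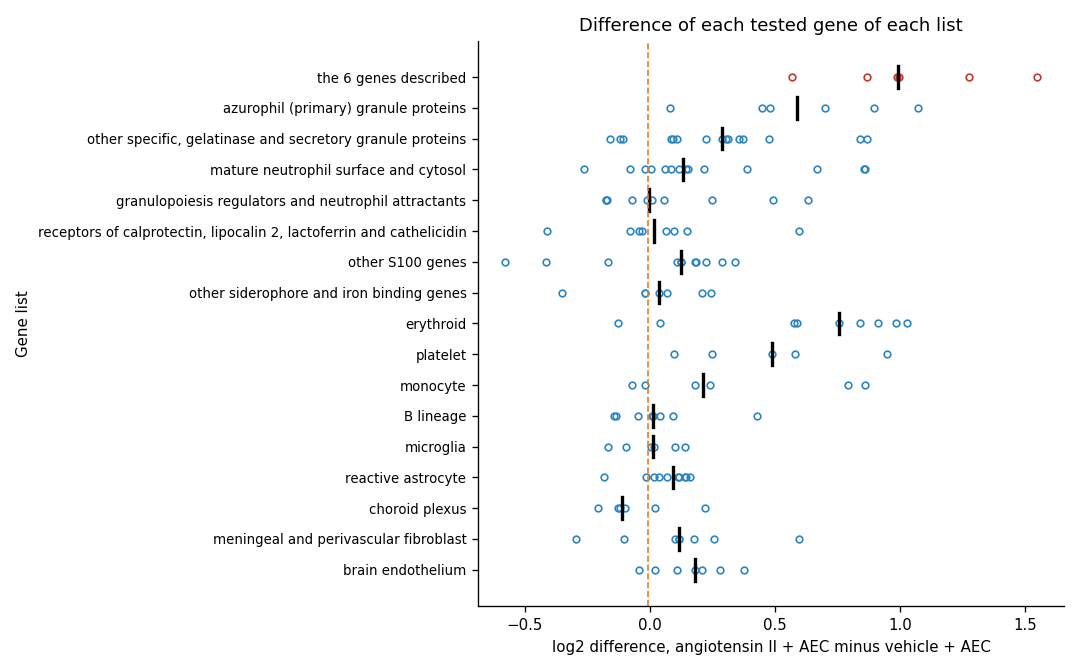
Difference between angiotensin II + AEC and vehicle + AEC on the log2(FPKM + 0.1) scale (x axis) for each tested gene (points) of each list (rows), with the list's median as a black bar and the median of all genes tested as a dashed line. The 6 genes described here, in red, have a median of 0.99, the erythroid genes 0.76, the azurophil granule genes 0.59 and the microglia genes 0.01. The 6 include Camp (1.55) and Ngp (1.28), which were chosen with results of these angiotensin II + AEC mice known, so the medians are a description.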

How the data were processed

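RNA of brain hemispheres was sequenced in 24 mice, whose groups and numbers come from the labels. According to the study's methods, poly-A libraries were read on an Illumina HiSeq and mapped to Ensembl's mouse genome. The labels name GRCm38 (mm10). Aligner, counter and strand setting are not given in the sources used here. The authors deposited FPKM values, which are already scaled to the length of each gene and the size of each library. Multiplied by gene length, 100% of the values were whole multiples of 1 read in every mouse (tolerance 0.01 read), so the reads behind each value were recovered.

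log2(FPKM + 0.1) was tested with limma 3.58.1 in R 4.3.3, with 4 groups in one fit, an eBayes trend and Benjamini-Hochberg adjustment over 27286 genes above 0 in at least 6 mice, a test for FPKM in place of a count test. Single genes were also tested by exact two-sided permutation, and correlations by 100000 permutations within groups. Python 3.11.15, pandas 2.3.3, numpy 2.4.6, scipy 1.17.1 and matplotlib 3.10.9 were used. The fit was tested on simulated data. The members, gene lists, tests and named genes were chosen with earlier results of these data known. A test planned for Ngp was left out, since its choice is not independent of the mice tested. Named genes were the 6 members, list genes with an unadjusted p under 0.05 or among the 3 highest of their list, and the 3 genes nearest to each member. Ly6g, Cxcr2 and Hbb-bs were named as defining markers after their values were seen. The single result of 1 list gene is not reported here, although the counts include it. Alternatives were a pseudocount of 1 or 0.01, other filters, the compared groups alone, the replicate number as a block, rescaled FPKM, voom on recovered reads, array weights, a term for the 6 libraries that stood apart, the other 18 alone, and each mouse left out. The paper states that mice were caged with their littermates, but not which of the sequenced mice shared a litter or cage. Litter and cage could therefore not be part of the fit, and p-values measure the spread between these mice.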

Additional observations from a re-analysis of the deposited data

Results flagged for a closer look

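In each of 24 sets of 6 mice (6 genes in 4 groups), the gap between the highest or lowest mouse and its nearest neighbour was divided by the range of the set and compared with Dixon's critical value of 0.625, on the log2(FPKM + 0.1) scale. Chance passes it in about 1 set in 20, and 3 sets passed it here. S100a9 in angiotensin II replicate 2 was 3.47 FPKM, below the other 5 mice of its group at 7.11 to 10.9 FPKM (ratio 0.6253). S100a9 in vehicle + AEC replicate 6 was 2.10 FPKM, below 4.70 to 7.47 FPKM in the others (ratio 0.6316), and its library is among the 6 of high total FPKM. Lcn2 in vehicle + AEC replicate 1 was 2.14 FPKM, above 0.409 to 0.735 FPKM in the others (ratio 0.6655). The split of the angiotensin II + AEC group, with replicates 4 and 6 highest in 5 of the 6 genes, did not pass in any gene, since this ratio looks at 1 mouse at a time. On the FPKM scale itself 4 sets pass: Lcn2 in vehicle + AEC replicate 1 again (ratio 0.811), in angiotensin II replicate 6 (0.673) and in angiotensin II + AEC replicate 1 (0.714), and Camp in angiotensin II replicate 3 (0.702), each the highest of its group.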

How the results depend on the processing

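Over 23 alternatives, S100a8, S100a9, Ltf and Lcn2 stayed higher with angiotensin II + AEC than with vehicle + AEC and none reached an adjusted p under 0.05 (lowest 0.673). The log2 difference ran from 0.64 to 1.03 for S100a8 (unadjusted limma p from 0.00817 to 0.0691, under 0.05 in 19 of 23), from 0.61 to 1.28 for S100a9 (0.00270 to 0.175, 18 of 23), from 0.41 to 1.38 for Ltf (0.000535 to 0.0839, 15 of 22) and from 0.20 to 0.87 for Lcn2 (0 of 23). The unadjusted p rose above 0.05 for S100a8, S100a9 and Ltf without angiotensin II + AEC replicate 4 or 6, for S100a8 also without vehicle + AEC replicate 2, for S100a9 without vehicle + AEC replicate 6, and for Ltf without angiotensin II + AEC replicate 1. It did so in the 18 libraries for all 3 genes (0.0511, 0.175 and 0.0839), with array weights for S100a9 (0.0954), and for Ltf with a pseudocount of 0.01 (0.0560), the compared groups alone (0.0722) and voom (0.0685). For vehicle + AEC against vehicle, the difference of Ngp was 0.17 to 0.94, whereas the difference of Camp was -0.0215 with a pseudocount of 1 and -0.18 to 0.31 with 1 mouse left out, being -0.09 without vehicle replicate 1, -0.18 without vehicle replicate 2 and -0.05 without vehicle + AEC replicate 5. The cause was not tested. A minimum mean of 1 FPKM leaves Camp and Ltf with no value.

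Numbers of genes with an unadjusted p under 0.05 are given for angiotensin II against vehicle (604 as reported), angiotensin II + AEC against angiotensin II (694), vehicle + AEC against vehicle (658) and angiotensin II + AEC against vehicle + AEC (725), in that order. They were 93, 119, 105 and 136 with a minimum mean of 1 FPKM, which tests fewer genes. They were 1254, 1282, 1331 and 1303 with array weights, and 1053, 1259, 1140 and 1164 in the 18 libraries. Without a filter the first and second were 969 and 1043. With the library set as a term the first, second and last were 944, 1063 and 1093. With 1 mouse left out they were 537 to 843, 612 to 887, 590 to 1188 and 627 to 1247, the highest of the last 2 without vehicle + AEC replicate 6. The number with an adjusted p under 0.05 was 0 in every comparison and alternative but 1: without vehicle + AEC replicate 1, 1 gene (Gm15727) passed with angiotensin II + AEC against vehicle + AEC, a range of 0 to 1.

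As far as the labels show, mice of different groups share only a number. Of 36 pairs with the same replicate number, 28 had correlated deviations over 0.1 (range -0.224 to 0.797), and 7 of 24 mice correlated best with their own number. With the replicate block the numbers of genes were 950 (angiotensin II against vehicle), 1036 (vehicle + AEC against vehicle) and 1096 (angiotensin II + AEC against vehicle + AEC), and no adjusted call changed. Levels of a few reads limit Camp and Ltf most.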
